A study of Rattus norvegicus with 13 samples.

Results

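The genes described here encode the regulators of mitochondrial biogenesis and of mitochondrial DNA (mtDNA) expression. They are *Ppargc1a*, *Esrra*, *Nrf1*, *Tfam*, *Tfb2m*, *Polrmt*, *Polg*, *Twnk*, *Lrpprc* and *Slirp*, and they were picked by gene name. All 10 names were found, each on 1 of the 14716 rows of the deposited table, and all 10 passed the filter on low rows. RNA was sequenced from the laser captured posterior ventricular zone (VZ) of male Long Evans rat pups on postnatal day 2 (PN2). The VZ borders the ventricle and holds the radial glia from which neurons and glia arise. The 7 control pups came from dams given the vehicle, and the 6 PTU exposed pups from dams that drank 3 ppm propylthiouracil (PTU), an inhibitor of thyroid hormone synthesis, which left dams and pups hypothyroid. Each pup came from a different litter, and only males were sequenced. All levels below are normalized counts, that is, estimated reads divided by the authors' size factor for each pup, and differences are PTU minus control on the scale log2(normalized count + 1).

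Mitochondria carry a small circular genome that encodes 13 proteins of the respiratory chain, whereas all other mitochondrial proteins, including those that copy and read this genome, are encoded in the nucleus. PGC-1α (*Ppargc1a*) is a coactivator that works through ERRα (*Esrra*) and nuclear respiratory factor 1 (*Nrf1*) to raise the transcription of nuclear genes for mitochondria, and it is a known target of thyroid hormone in several tissues. TFAM packages mtDNA and, with TFB2M, lets the polymerase POLRMT start transcription. POLG and the helicase Twinkle (*Twnk*) replicate mtDNA, and the LRPPRC and SLIRP proteins form a complex that keeps mitochondrial mRNAs stable.

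The promoters of all 10 genes were found in RefSeq (build GRCr8), and the 250 bases before the annotated start of 4 of them are printed here, 5′ to 3′ on the strand of the gene. *Tfb2m* and *Slirp* were the regulators with the lowest p-values, *Twnk* was one of those that passed in a correlation with mitochondrial mRNA, and *Tfam* is shown beside them as the partner of *Tfb2m* in transcription. Capitals mark a match to the core of the NRF1 site (GCATGCGC) in *Tfb2m* and to the core of the ETS site that the GABPA factor binds (CCGGAAG, or CTTCCGG on the other strand) in the rest. The windows are chr13:93828595-93828844 on the minus strand for *Tfb2m* and, on the plus strand, chr6:112819434-112819683 for *Slirp*, chr1:253817314-253817563 for *Twnk* and chr20:17355123-17355372 for *Tfam*.
Tfb2m: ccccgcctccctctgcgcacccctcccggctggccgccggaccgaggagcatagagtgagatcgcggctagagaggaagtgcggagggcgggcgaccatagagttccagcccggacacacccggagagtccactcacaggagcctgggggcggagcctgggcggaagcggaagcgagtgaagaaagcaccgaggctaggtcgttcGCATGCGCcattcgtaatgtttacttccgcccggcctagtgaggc
Slirp: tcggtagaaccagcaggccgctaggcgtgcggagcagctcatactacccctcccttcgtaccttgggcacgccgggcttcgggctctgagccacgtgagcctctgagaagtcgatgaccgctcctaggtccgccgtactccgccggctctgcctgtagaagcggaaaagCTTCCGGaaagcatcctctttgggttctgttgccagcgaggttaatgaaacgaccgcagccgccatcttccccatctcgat
Twnk: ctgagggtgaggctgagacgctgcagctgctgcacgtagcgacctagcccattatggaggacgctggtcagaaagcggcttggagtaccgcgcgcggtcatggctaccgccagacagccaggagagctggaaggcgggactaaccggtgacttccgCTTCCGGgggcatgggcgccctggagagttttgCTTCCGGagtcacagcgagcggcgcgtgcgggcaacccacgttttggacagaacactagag
Tfam: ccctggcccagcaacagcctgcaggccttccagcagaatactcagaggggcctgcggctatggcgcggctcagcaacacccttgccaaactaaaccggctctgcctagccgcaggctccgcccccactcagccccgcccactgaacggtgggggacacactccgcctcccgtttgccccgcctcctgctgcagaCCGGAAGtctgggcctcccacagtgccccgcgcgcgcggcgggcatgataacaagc
The NRF1 core was present in 2 of the 10 promoters, those of *Tfb2m* (45 to 38 bases before the start) and *Esrra* (115 to 108 bases before it), against 2.2% of 33469 rat promoters of the same length. The ETS core was present in 5 of the 10, those of *Polg*, *Polrmt*, *Slirp*, *Tfam* and *Twnk*, against 7.27% of all promoters. *Twnk* held it at 2 places, 94 to 88 and 61 to 55 bases before the start. A cAMP response element (TGACGTCA) lay in the *Ppargc1a* promoter, 181 to 174 bases before the start, and in 1.59% of all promoters. The ERR site (TCAAGGTCA, 0.388% of all promoters) and the nuclear receptor half-site it contains (AGGTCA, 14.1%) were in 0 of the 10. The GC content was 59.6 to 75.2% in 8 of the 10 promoters, 50.4% in *Ppargc1a* and 47.6% in *Polrmt*, beside a median of 51.2% over all promoters, and its part in these shares was not tested. Both strands were searched, and a match is a match of letters only. The search was chosen after the values had been seen.

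No regulator differed between PTU exposed and control pups after adjustment over all rows. *Tfb2m* and *Slirp* were higher in PTU exposed pups, by 1.29 and 1.67 times, at unadjusted p-values of 0.0162 and 0.0409, and the other 8 regulators differed by at most 0.17 on the log2 scale in either direction. Adjusted p-values (limma, linear model over 14606 rows, Benjamini-Hochberg) began at 0.213 for the 10 regulators, and 0% of all rows were called at 0.05. By unadjusted p under 0.05, 2 of the 10 regulators and 16.3% of all rows differed. Over both directions the share among the regulators was thus close to the background. The 2 regulators were both higher, whereas 8.11% of all rows were higher and 8.2% lower at that level. Of the 10, 5 were higher and 5 lower, with a median difference of 0.002 beside 0.004 over all rows. In each of the 10 genes the groups overlapped (0.596% of all rows did not overlap). The exact permutation test (all 1716 splits, two-sided) likewise called 0 rows after adjustment, with an unadjusted p under 0.05 in 15.3% of rows. The absence of calls belongs to these tests on log2 normalized counts. By contrast, the paper reports differentially expressed genes from its DESeq2 comparison of the same pups. Oxidative phosphorylation and mitochondrial dysfunction were among the most significant pathways it lists. Why the results differ was not tested.

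**Figure D1:**
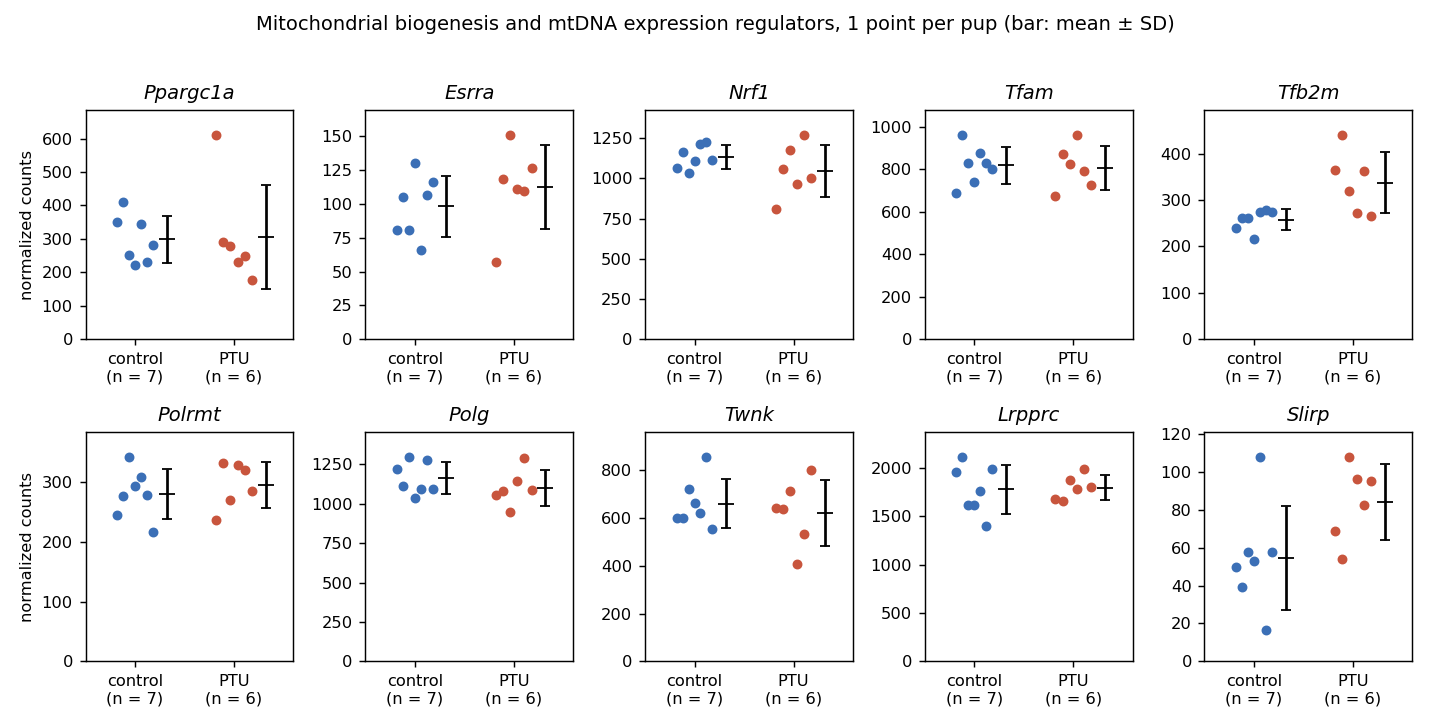
Normalized counts (vertical axes, each starting at 0) of the 10 regulators in 7 control and 6 PTU exposed pups; each point is 1 pup and the bar gives the mean ± SD. The PTU exposed pups reach 441 for *Tfb2m* while no control pup passes 279, whereas the groups lie on top of each other for *Tfam*, *Polg* and *Lrpprc*.

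The coactivator and its partner factors came first. *Ppargc1a*, the coactivator, measured 351, 411, 253, 223, 343, 232 and 281 normalized counts in control pups 1 to 7, and 612, 291, 278, 230, 249 and 178 in PTU exposed pups 1 to 6. PTU pup 1 stood above every other pup, and the other 5 PTU exposed pups lay below the control mean of 299 ± 70.7 (SD, n = 7). The difference was -0.05 (SE 0.23, limma adjusted p = 0.937), with an interval from -0.54 to 0.44. Without PTU pup 1 it was -0.27, without PTU pup 6 it was 0.083, and with the neuron and choroid plexus marker scores as covariates, 1 at a time, it was -0.23 and 0.18. As a fold, this interval runs from 0.686 to 1.36 times the control level.

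*Esrra*, the nuclear receptor partner of PGC-1α, was one of the lowest of the set in estimated reads, at 63 to 190 per pup (a normalized count divided by what 1 read is worth in that pup). Its normalized counts were 80.8, 105, 81.0, 130, 65.8, 106 and 116 in control pups and 56.7, 118, 151, 111, 110 and 127 in PTU exposed pups. The lowest and the highest value of the 13 both belonged to PTU exposed pups, and 5 of 6 of these lay above the control mean. The difference was 0.17 (SE 0.24, limma adjusted p = 0.751), and with 1 pup left out it ranged from 0.073 (without PTU pup 3) to 0.35 (without PTU pup 1). It was 0.28 with the neuron covariate and 0.042 with the choroid plexus covariate. In this gene 2 of 13 values were whole multiples of 1 read (within 0.05% of the value), against 13 of 13 in each of the other 9.

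*Nrf1*, the transcription factor that drives many nuclear genes for the respiratory chain, was at 1066, 1162, 1034, 1109, 1216, 1227 and 1115 normalized counts in control pups. In PTU exposed pups it was at 812, 1060, 1178, 963, 1271 and 1001. The control pups formed a narrow band (coefficient of variation 6.44%), and the PTU exposed pups spread to both sides of it (15.5%), with 4 of 6 below the control mean. The difference of -0.12 (SE 0.10), which was -0.054 without PTU pup 1, -0.023 with the neuron covariate and -0.041 with pups weighted by quality, did not pass the test (limma adjusted p = 0.551), nor did the exact permutation test before adjustment (p = 0.213).

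Of the 3 proteins that start transcription on mtDNA, *Tfb2m* was the one that differed most. *Tfb2m* (ENSRNOT00000003618) encodes the factor that opens the mtDNA promoter for the polymerase. It was at 239, 261, 261, 217, 275, 279 and 274 normalized counts in control pups (258 ± 22.4, SD, n = 7) and at 365, 441, 319, 272, 363 and 266 in PTU exposed pups (338 ± 66.1, SD, n = 6). All 6 PTU exposed pups lay above the control mean and 4 above the highest control pup, while PTU pups 4 and 6 lay within the control range. The difference was 0.37 (SE 0.14), with an interval from 0.08 to 0.66, or 1.05 to 1.58 times. Before adjustment the exact permutation test gave p = 0.00758, and after adjustment over all rows 0.205 (limma adjusted p = 0.213). The unadjusted limma p stayed under 0.05 in 13 of 13 fits with 1 pup left out, in which the difference ranged from 0.29 to 0.43. With the neuron marker score as a covariate it was 0.40, and with the choroid plexus score 0.36.

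*Tfam*, the mtDNA packaging and transcription factor, showed no such difference. The control pups were at 689, 961, 828, 741, 878, 831 and 800 normalized counts, and the PTU exposed pups at 673, 870, 826, 963, 792 and 725. The ranges coincided almost entirely, and 3 PTU exposed pups lay above and 3 below the control mean of 818 ± 88.6 (SD, n = 7). The difference was -0.02 (SE 0.10, limma adjusted p = 0.94), and its interval, from -0.24 to 0.20, leaves room for 0.847 to 1.15 times the control level. Here the sign is not fixed: it was positive with the neuron marker covariate (0.12), with the choroid plexus covariate (0.050) and with pups weighted by quality (0.011).

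*Polrmt*, the mitochondrial RNA polymerase, was at 245, 276, 342, 293, 309, 278 and 216 normalized counts in control pups. The PTU exposed pups were at 236, 332, 270, 329, 320 and 284, all within the control range. The difference was 0.08 (SE 0.14, limma adjusted p = 0.812), from 0.019 without control pup 7 to 0.14 without PTU pup 1. With the neuron covariate it was 0.24.

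The replication genes were both slightly lower in PTU exposed pups, within the spread. *Polg*, the catalytic subunit of the mtDNA polymerase, was at 1218, 1112, 1297, 1037, 1096, 1277 and 1094 normalized counts in control pups and at 1057, 1078, 944, 1143, 1289 and 1089 in PTU exposed pups. Apart from PTU pup 5, the PTU exposed pups lay below the control mean of 1162 ± 101 (SD, n = 7), but only PTU pup 3 lay below the control range. The difference was -0.08 (SE 0.09, limma adjusted p = 0.68), the smallest residual spread of the set (SD 0.135 on the log2 scale, against a median of 0.279 over all rows).

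*Twnk*, the mtDNA helicase, was at 599, 599, 723, 664, 624, 857 and 554 normalized counts in control pups, and at 642, 640, 715, 407, 532 and 802 in PTU exposed pups. PTU pup 4 was the lowest of the 13 and control pup 6 the highest. The difference was -0.10 (SE 0.15, limma adjusted p = 0.759). Without PTU pup 4 it was 0.014, and in a fit that also held the choroid plexus score it was -0.35 (limma, unadjusted p = 0.0191, adjusted p = 0.283). With the neuron score it was -0.17.

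Of the mRNA stability complex, *Lrpprc* lay close to the control level and *Slirp* above it. *Lrpprc*, the large subunit, was at 1962, 2115, 1616, 1617, 1761, 1396 and 1993 normalized counts in control pups and at 1676, 1655, 1878, 1778, 1994 and 1803 in PTU exposed pups. The PTU exposed pups lay inside the control range, with a coefficient of variation of 7.06% against 14.4%. The difference was 0.02 (SE 0.10, limma adjusted p = 0.927), and 0.089 with the choroid plexus covariate.

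*Slirp* (ENSRNOT00000016479), the RNA binding partner of LRPPRC, was at 50.03, 39.5, 57.6, 52.9, 108, 16.7 and 57.6 normalized counts in control pups (54.6 ± 27.5, SD, n = 7). In PTU exposed pups it was at 68.8, 54.0, 108, 96.0, 82.2 and 95.1 (84.0 ± 19.8, SD, n = 6). Control pup 5 matched the highest PTU exposed pup, control pup 6 was the lowest of all, and PTU pup 2 fell among the controls. The difference was 0.74 (SE 0.34), with an interval from 0.03 to 1.45. The exact permutation test gave p = 0.0455 before adjustment and 0.319 after it (limma adjusted p = 0.291). Only 17 to 136 estimated reads per pup lay behind these values, and for the lowest of them the counting error alone is 24.3%. The unadjusted limma p was under 0.05 in 5 of 13 fits with 1 pup left out. The difference was 0.49 without control pup 6 and 0.93 without control pup 5.

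These differences depend on the scaling in a common way. When every pup was given the same total, the median of all rows moved from 0.004 to 0.20. All 10 regulators were then positive, with *Nrf1* at 0.077, *Tfam* at 0.18 and *Tfb2m* at 0.57. Relative to that median they were -0.13, -0.02 and 0.37, as before. The 3 highest rows, which carry no gene name, are part of each total. They took 23.9 to 57.0% of the estimated reads in PTU exposed pups (median 35.8%) and 32.4 to 60.1% in control pups (median 50.9%). Their part in this shift was not tested.

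**Figure D2:**
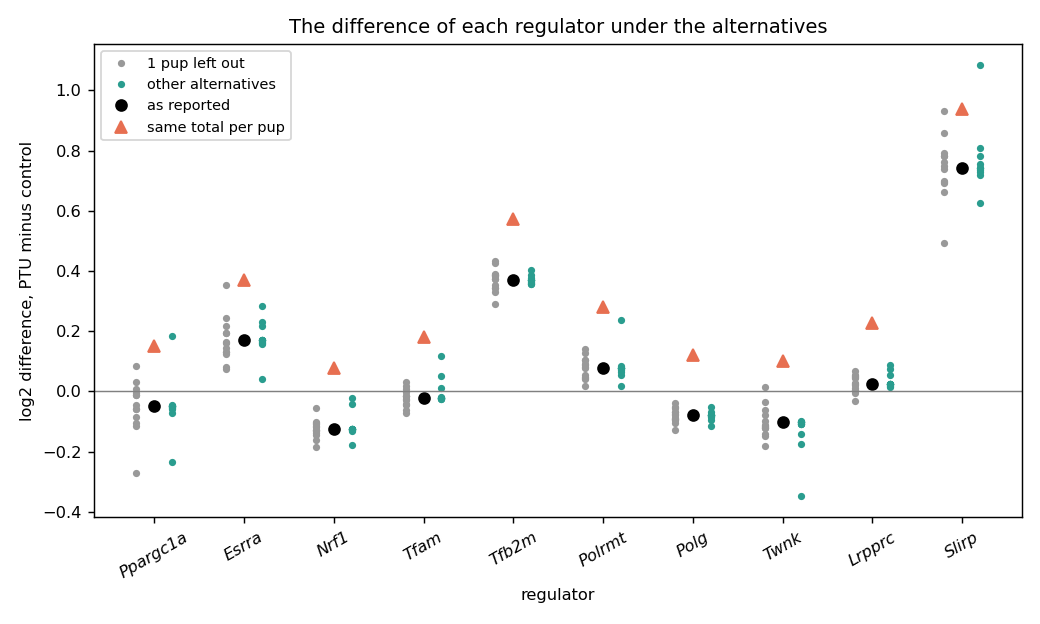
Difference of each regulator, PTU minus control (vertical axis, log2), as reported (black), with 1 pup left out (grey), with every pup at the same total (triangles) and under the other alternatives (green). *Tfb2m* and *Slirp* are above 0 at every point; *Nrf1* and *Polg* are above 0 at the triangle only, and *Tfam*, *Ppargc1a*, *Twnk* and *Lrpprc* have other points on both sides of 0.

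The transcripts that this machinery makes and keeps, the mRNAs encoded in mtDNA, were all higher in PTU exposed pups. The 13 mRNAs were higher by a median of 0.53 on the log2 scale, from 0.32 in *Mt-atp6* to 0.98 in *Mt-nd4l*. Of these, 10 had an unadjusted limma p under 0.05, beside 8.11% of all rows in that direction, and 0 passed adjustment, the smallest adjusted p being 0.133. The 13 share 1 genome and may not vary independently, so 10 is not a count of separate results. The groups overlapped in each of the 13. The sum of the 13 was 5523, 5349, 4680, 5814, 5754, 3547 and 6094 normalized counts in control pups and 6530, 5715, 6854, 10038, 7168 and 8199 in PTU exposed pups. Apart from PTU pup 2, every PTU exposed pup lay above the highest control pup. The sum was 1.41 times higher (log2 difference 0.49, exact permutation test, p = 0.00408, a test of the sum chosen after the values were seen).

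Among the subunits of complex I, *Mt-nd1* had the smallest p. It was at 572, 549, 390, 502, 463, 384 and 557 normalized counts in control pups and at 696, 521, 729, 964, 662 and 680 in PTU exposed pups, 5 of which were above every control pup. Its difference was 0.53 (SE 0.14, limma adjusted p = 0.133). *Mt-nd2* (0.65), *Mt-nd4* (0.55) and *Mt-nd5* (0.52) differed by similar amounts, with limma adjusted p-values of 0.148, 0.136 and 0.148. *Mt-nd6*, the only one of these genes encoded on the other strand of mtDNA, was at 12.8 to 37.1 normalized counts in control pups and 16.3 to 54.3 in PTU exposed pups, with a difference of 0.43 (SE 0.35). *Mt-nd3* and *Mt-nd4l* were likewise sparse, at 6.88 to 41.7 and 10.01 to 81.5 normalized counts over the 13 pups, and differed by 0.51 (SE 0.51) and 0.98 (SE 0.46).

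For complex IV, *Mt-co2* was at 396, 400, 248, 320, 342, 215 and 392 normalized counts in control pups and at 517, 357, 595, 685, 456 and 518 in PTU exposed pups, a difference of 0.66 (SE 0.18, limma adjusted p = 0.133). *Mt-co1* and *Mt-co3* differed by 0.52 and 0.57 (limma adjusted p = 0.148 and 0.156). *Mt-cyb* of complex III differed by 0.48 (limma adjusted p = 0.171), and the ATP synthase subunits *Mt-atp6* and *Mt-atp8* by 0.32 and 0.79 (0.367 and 0.298). Without control pup 6, *Mt-atp8* was at 0.49. *Mt-atp8* overlaps *Mt-atp6*, as *Mt-nd4l* overlaps *Mt-nd4*, and reads in the overlap could be divided between them. Nuclear copies of mtDNA may share reads with any of these genes, which was not tested. The mitochondrial rRNAs were not analysed here.

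**Figure D3:**
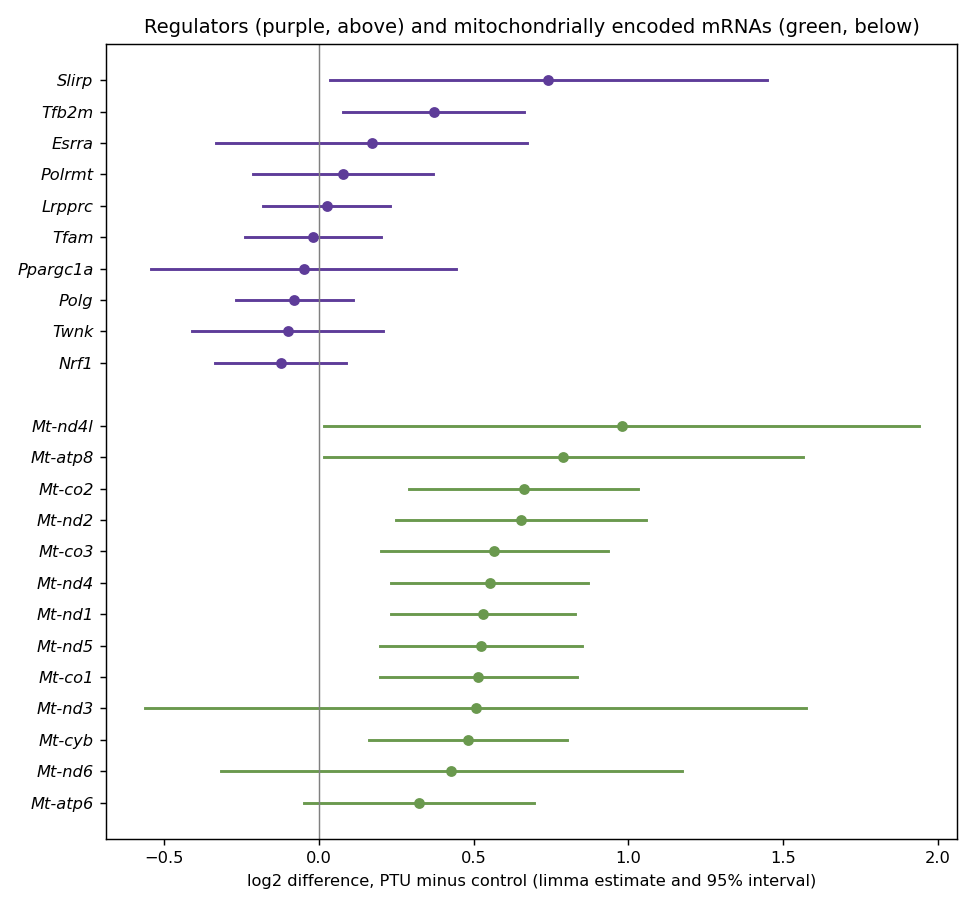
Difference, PTU minus control (horizontal axis, log2, limma estimate with 95% interval), of the 10 regulators (purple) and the 13 mRNAs encoded in mtDNA (green); the vertical line marks 0. The intervals of 8 of the 10 regulators include 0, and the 13 mitochondrial estimates lie between 0.32 and 0.98.

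Since both kinds of transcript were read in the same pup, the level of mitochondrial mRNA per regulator needs no scaling between pups. These ratios were added after the values had been seen. The sum of the 13 mRNAs per *Tfam* was 8.01, 5.57, 5.65, 7.85, 6.55, 4.27 and 7.62 in control pups and 9.70, 6.57, 8.30, 10.4, 9.05 and 11.3 in PTU exposed pups. Every PTU exposed pup but PTU pup 2 was above the highest control pup, and the ratio was 1.43 times higher (log2 difference 0.51, exact permutation test, p = 0.014). Per *Nrf1* it was 0.62 higher (exact permutation test, p = 0.00117), the largest of the 10. The ratio was also higher per *Polg* (0.57, exact p = 0.00758), *Lrpprc* (0.47, exact p = 0.00175) and *Twnk* (0.60, exact p = 0.0402). Values per *Ppargc1a*, *Polrmt* and *Esrra* were 0.54, 0.42 and 0.32 higher, with exact p-values of 0.128, 0.0647 and 0.252.

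The ratio per *Tfb2m* was 23.1, 20.5, 17.9, 26.8, 20.9, 12.7 and 22.3 in control pups and 17.9, 12.96, 21.5, 36.8, 19.7 and 30.8 in PTU exposed pups. The groups lay across each other, with 3 of 6 PTU exposed pups above the control mean and a difference of 0.12 (exact permutation test, p = 0.621). Per *Slirp* the ratio was 53.4 to 212 in control pups and 63.6 to 106 in PTU exposed pups, with a difference of -0.26 (exact permutation test, p = 0.366). So 9 of the 10 ratios were higher, 5 of them at an exact p under 0.05 before any adjustment, and 0 had groups that did not overlap. The 10 ratios share 1 numerator and are not independent of each other. On the log2 scale each difference is that of the sum less that of the regulator. Where a regulator differed little, its ratio therefore restates the higher sum.

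**Figure D4:**
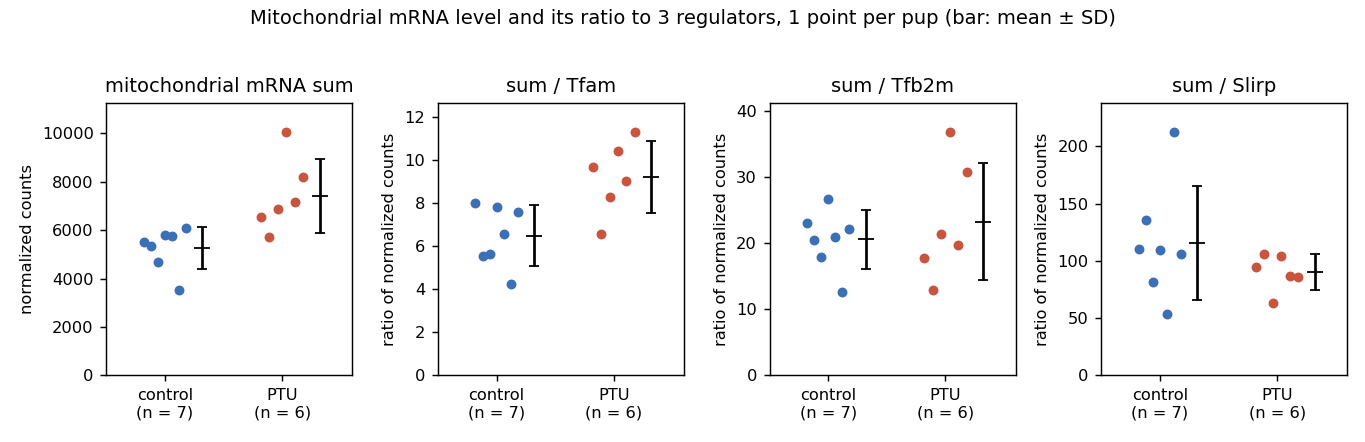
Sum of the 13 mRNAs encoded in mtDNA (left, normalized counts) and its ratio to *Tfam*, *Tfb2m* and *Slirp* in 7 control and 6 PTU exposed pups; each point is 1 pup and the bar gives the mean ± SD. The PTU exposed pups lie at 6.57 to 11.3 per *Tfam* against 4.27 to 8.01 in control pups, and inside the control range per *Slirp*.

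To ask whether pups with more of a regulator had more mitochondrial mRNA within their group, each regulator was correlated with the mean log2 level of the 13 mRNAs over 13 pups after both were centred within groups. Both values of a pup come from 1 library with 1 size factor. Of the 10 relations, *Slirp* (r = 0.71, permutation p = 0.00992, adjusted over the 10 p = 0.0496; rho = 0.53, permutation p = 0.0785) and *Twnk* (r = -0.74, permutation p = 0.0093, adjusted p = 0.0496; rho = -0.65, permutation p = 0.0195) passed for r. Adjusted p-values for rho began at 0.191, so none passed by rank. With a pseudocount of 10 and with quantile normalization neither r passed (permutation adjusted p = 0.0703 and 0.055 for both genes). *Lrpprc* gave r = 0.62 (permutation p = 0.0213, adjusted p = 0.071; rho = 0.58, permutation p = 0.0538), and *Tfb2m* gave r = -0.57 (permutation p = 0.0447, adjusted p = 0.112; rho = -0.54, permutation p = 0.0573). The sign of *Tfb2m* within groups was thus opposite to that of its difference between groups.

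Control pup 6, the lowest in mitochondrial mRNA, and PTU pup 4, the highest, lay farthest from the middle. Without them r was -0.40 for *Twnk*, 0.56 for *Slirp*, 0.59 for *Lrpprc* and -0.47 for *Tfb2m*, and rho was -0.50, 0.41, 0.58 and -0.36. By r, the *Twnk* relation lost most without these pups, whereas by rank it was still the strongest negative one. The other 6 regulators had r between -0.23 and 0.19, among them *Tfam* at 0.19 (permutation p = 0.545) and *Ppargc1a* at -0.03 (permutation p = 0.918). Without the same pups *Polrmt* moved from -0.11 to -0.39 and *Tfam* to -0.031. With every pup at the same total, which adds a common factor to both measures, all 10 values of r were positive, from 0.18 for *Twnk* to 0.77 for *Slirp* and 0.79 for *Lrpprc*, with *Tfam* at 0.59 and *Tfb2m* at 0.29.

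**Figure D5:**
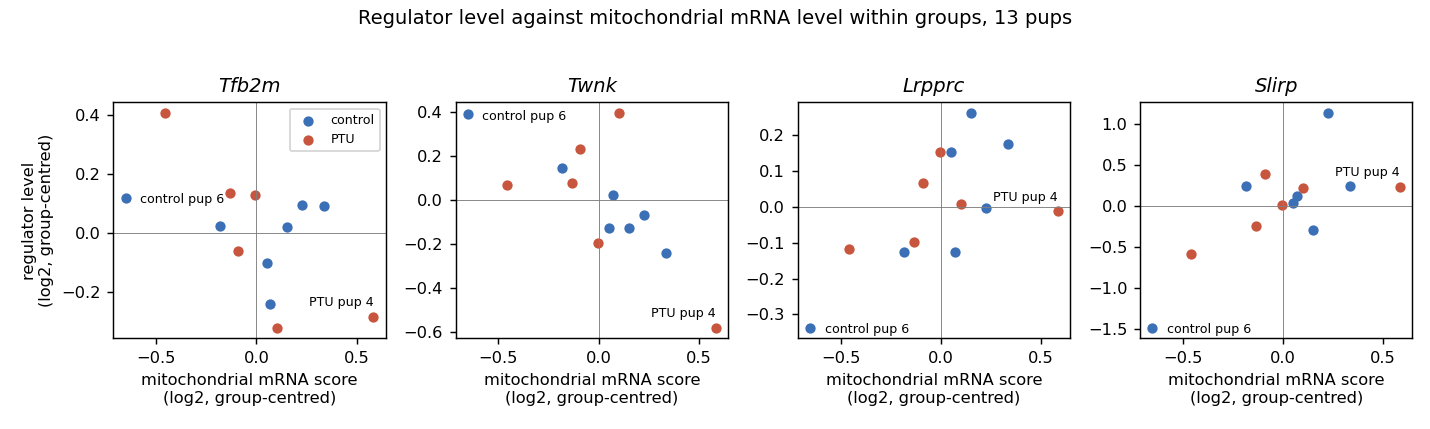
Level of 4 regulators (vertical axes, log2) against the mean log2 level of the 13 mRNAs encoded in mtDNA (horizontal axes), both centred within groups; each point is 1 of 13 pups. *Twnk* slopes down (r = -0.74) and *Slirp* slopes up (r = 0.71), with control pup 6 and PTU pup 4 at the ends.

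Other genes of the same pathways were counted the same way, and 0 were called. For the counts that follow, 16.3% of all rows had an unadjusted limma p under 0.05. Among 18 further biogenesis regulators (7 higher, 11 lower, median -0.05), 1 was higher and 3 were lower at an unadjusted limma p under 0.05. *Nfe2l2*, the NRF2 factor of the oxidative stress response, was lower in all 6 PTU exposed pups than the control mean, at 342 to 716 normalized counts against 540 to 954, a difference of -0.75 (SE 0.17, limma adjusted p = 0.122). *Ppard*, a fatty acid sensing nuclear receptor, was at 346 to 443 against 425 to 529 (-0.30, limma adjusted p = 0.175). *Pprc1*, a coactivator related to PGC-1α, was at 749 to 1046 against 643 to 848 (0.24, limma adjusted p = 0.246).

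Of 17 genes of mtDNA maintenance (10 higher, 7 lower, median 0.03), 1 was higher and 1 lower at an unadjusted p under 0.05. *Ssbp1*, the protein that coats single stranded mtDNA at the replication fork, was at 107 to 169 normalized counts in PTU exposed pups and 153 to 289 in control pups, a difference of -0.52 (SE 0.18, limma adjusted p = 0.175). *Slc25a4*, the ADP/ATP carrier, was at 6359 to 9500 against 5487 to 7109 (0.28, limma adjusted p = 0.186), and *Top1mt*, the mitochondrial topoisomerase, differed by 0.39 (limma adjusted p = 0.347). Of 25 genes of mitochondrial transcription and RNA processing (14 higher, 11 lower, median 0.02), 2 were higher and 1 lower. These were *Rexo2*, a nuclease that degrades short RNAs (0.52, limma adjusted p = 0.186), *Tbrg4*, an RNA binding protein also called FASTKD4 (0.38, limma adjusted p = 0.244), and *Nsun4*, an rRNA methyltransferase (-0.37, limma adjusted p = 0.273).

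The nuclear subunits of the respiratory chain, the other source of the same complexes, were divided. Of 26 tested, 19 were higher and 7 lower, with 7 and 3 at an unadjusted p under 0.05 and a median of 0.08, beside 0.53 for the mitochondrial mRNAs. *Atp5mc3* (0.57, limma adjusted p = 0.148) and *Cox5a* (0.59, limma adjusted p = 0.177) were higher by about as much as the mitochondrial mRNAs, and *Sdhc*, a subunit of complex II, which holds no subunit encoded in mtDNA, was lower (-0.30, limma adjusted p = 0.187). Of 14 genes that stand for mitochondrial mass (8 higher, 6 lower, median 0.11), 4 were higher and 2 lower at that level. The import receptor *Tomm20* was at 2286 to 2775 normalized counts against 1772 to 2521 (0.31, limma adjusted p = 0.143), and the import motor subunit *Timm44* differed by -0.26 (limma adjusted p = 0.251).

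Markers of the captured tissue and of neighbouring cells gave 0 calls, with adjusted p-values (limma) from 0.143 for radial glia, 0.182 for neurons and 0.156 for the choroid plexus, and the groups overlapped in each marker. At an unadjusted p under 0.05, 6 of 10 radial glia and 5 of 9 choroid plexus markers were lower (8.2% of all rows) and 5 of 10 neuron markers were higher (8.11%). Radial glia markers, which define the VZ, were all present, and 10 of 10 were lower in PTU exposed pups (median -0.33, summed level 75130 to 104572 normalized counts in control pups and 62176 to 82649 in PTU exposed pups). Neuron markers were higher in 10 of 10 (median 0.39, summed level 53514 to 77410 normalized counts in control pups and 70288 to 122864 in PTU exposed pups). Choroid plexus markers were lower in 9 of 9 (median -0.67, summed level 51409 to 144516 and 23854 to 102765). In no list was a marker that was present near 0. All 7 markers of the oligodendrocyte lineage were higher (median 0.25), and 5 of 6 ependymal (median -0.25), 5 of 6 endothelial (median 0.25) and 5 of 7 microglial markers (median 0.06) shared a sign, lower for the ependymal list and higher for the others. The 1 erythrocyte gene measured was at -0.47, and *Foxj1*, *Cldn5*, *Flt1* and the other erythrocyte genes were not analysed here. With the neuron score as a covariate the median of the 13 mitochondrial mRNAs was 0.58, and with the choroid plexus score 0.70. In these fits 8 and 11 of the 13 had an unadjusted limma p under 0.05, beside 10 without a covariate. The radial glia score was not used as a covariate. In such bulk samples, fewer cells of a type and less RNA per cell cannot be told apart. The depth of the control pups was 22293200 to 43508868 estimated reads, and that of the PTU exposed pups was 28412161 to 44386439. These totals include the 3 highest rows, whose median share was 50.9% in control pups and 35.8% in PTU exposed pups. They therefore do not give the depth left for the other rows.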

How the data were processed

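Total RNA of the captured VZ (7 control, 6 PTU exposed pups) was depleted of rRNA and made into libraries with a stranded SMARTer kit. The paper reports some degradation of this RNA, whereas hippocampal cells captured as slide controls gave intact RNA. Its bearing on the levels and ratios given here was not tested. STAR 2.7.8a placed the reads on mRatBN7.2 after trimming with Trimmomatic, and the Partek E/M model estimated counts per row, dividing reads that match several. For their DESeq2 comparison, the authors scaled the pups by median ratio size factors, and this scaled signal, here called normalized counts, is what they deposited. Rows have Ensembl transcript identifiers, although the annotation named in the methods is RefSeq. A second deposited table holds the authors' own fold changes and p-values and was not used. Columns of per-sample values left out numbered 0.

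From 88.2 to 89.7% of the values between 20 and 150 were whole multiples (within 0.02) of 1 step per pup. No count model was fitted to these scaled values, and the step served only to estimate reads per pup and per gene. Rows with a mean of at least 10 (14606 of 14716) were put on the scale log2(normalized count + 1) for limma (version 3.58.1 under R 4.3.3, two-sided, variance trend in the empirical Bayes step) and for an exact permutation test over 1716 splits (smallest possible p 0.000583), each adjusted by Benjamini-Hochberg over all rows at 0.05. Correlations used 100000 permutations within groups. Intervals are 95% and counting errors cover counting only. Named genes are all members, all mitochondrially encoded mRNAs and, per further list, the 3 rows with the smallest limma p, of which 1 is not reported here. The members and lists were chosen with earlier results of these data known. Alternatives were 13 other settings and each pup left out in turn. The tests were tested on simulated data. Promoters came from RefSeq (GRCr8), used for sequence only. Python 3.11.15 was used with scipy 1.17.1, numpy 2.4.6, matplotlib 3.10.9 and pandas 2.3.3. Pups come from different litters, and replicate numbers pair no samples.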

Additional observations from a re-analysis of the deposited data

Results flagged for a closer look

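Of 78 groups of normalized counts examined, 4 held 1 pup far from the others, where Dixon's criterion at the 95% level marks about 1 in 20 groups by chance. *Ppargc1a* in PTU pup 1 (612 normalized counts) stood above the other PTU exposed pups, which reached 291, and its gap took 0.739 of the range of the group. The same pup was the highest for *Top1mt*, at 394 normalized counts, whereas the other PTU exposed pups were at 145 to 221. *Tbrg4* was highest in PTU pup 4, at 436 normalized counts. *Timm44* was highest in PTU pup 2, at 1546 normalized counts, above every control pup (1100 to 1457), while the other 5 PTU exposed pups were lower than the control mean of 1355.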

How the results depend on the processing

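Under the 13 other settings and with each pup left out, 0 of the 10 regulators were called. Over all rows, calls numbered 40 with pups weighted by quality, 18 with the replicate block, 4 with the choroid plexus covariate and 0 to 179 with 1 pup left out (7 without control pup 6, 179 without PTU pup 2). Rows with an unadjusted p under 0.05 fell from 2383 to 1433 with the neuron covariate. Regulators at that level numbered 1 with a mean of at least 100, where *Slirp* was not tested, 3 with the choroid plexus covariate, which adds *Twnk*, and 1 to 2 with 1 pup left out. They numbered 1 in 8 of 13 omissions. Mitochondrial mRNAs called ranged from 0 to 2. Without PTU pup 2 these were *Mt-nd1* (0.61, limma adjusted p = 0.042) and *Mt-co2* (0.76, limma adjusted p = 0.0423), and *Nfe2l2* (-0.89, limma adjusted p = 0.0252) was also called.

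With the same total per pup, medians were 0.20 for the 10 regulators, 0.15 for biogenesis regulators, 0.23 for mtDNA maintenance, 0.22 for mitochondrial transcription, 0.28 for nuclear subunits and 0.31 for mitochondrial mass, beside 0.20 over all rows, and 1584 rows were higher and 81 lower at an unadjusted p under 0.05 (1185 and 1198 as reported). *Ppargc1a* was then 0.15, *Tfam* 0.18, *Nrf1* 0.077, *Polg* 0.12 and *Twnk* 0.10, the same in both tests. Other changes of sign were *Ppargc1a* at 0.18 and *Tfam* at 0.050 with the choroid plexus covariate, *Tfam* at 0.12 with the neuron covariate and 0.011 with quality weights. With 1 pup left out *Ppargc1a* ranged from -0.27 to 0.083, *Tfam* from -0.073 to 0.030, *Twnk* from -0.18 to 0.014 and *Lrpprc* from -0.032 to 0.068. The median of biogenesis regulators was -0.10 with the neuron covariate and -0.12 to -0.025 with 1 pup left out. That of nuclear subunits was 0.17 with the choroid plexus covariate, and that of mitochondrial mass 0.028 with the neuron covariate. With 1 pup left out, the median of mtDNA maintenance ran from -0.018 (without control pup 2) to 0.079, that of mitochondrial transcription from -0.014 (without PTU pup 5) to 0.056, that of nuclear subunits from 0.049 (without control pup 1) to 0.11 and that of mitochondrial mass from 0.041 (without PTU pup 1) to 0.16. In the same fits *Polg* ran from -0.13 to -0.037, *Mt-nd3* from 0.29 to 0.72, *Mt-nd6* from 0.28 to 0.62 and *Top1mt* from 0.23 to 0.51. The cause was not tested.

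Correlations with mitochondrial mRNA at the same total were 0.54 for *Ppargc1a*, 0.59 for *Tfam*, 0.29 for *Esrra*, 0.45 for *Nrf1*, 0.29 for *Tfb2m*, 0.44 for *Polg*, 0.32 for *Polrmt*, 0.18 for *Twnk*, and 0.77 for *Slirp* and 0.79 for *Lrpprc* (permutation test, adjusted p = 0.0278 for both). Without the 2 farthest pups *Tfam* was at -0.031, *Nrf1* at 0.13 and *Polrmt* at -0.39. *Twnk* (-0.74 with a pseudocount of 10, -0.71 with quantile normalization) and *Slirp* (0.68 and 0.63) no longer passed, with permutation adjusted p-values of 0.0703 and 0.055. The replicate numbers do not pair the samples: correlations of same-numbered pups ran from -0.07 to 0.198, and 1 of 6 was best with its own number. With the replicate block, which uses pups 1 to 6 of each group, *Tfb2m* was at 0.39 and *Slirp* at 0.78. Of 984 recomputed values of 38 single genes, 963 kept their direction and their side of the threshold.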
